A study of Mus musculus with 5 samples.

Results

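In all, 10 genes of the Hippo pathway and its transcriptional output were followed in mouse colon spheroids: the secreted matrix proteins Cyr61 and Ctgf, the nuclear cofactor Ankrd1, the scaffold Amotl2, the LIM protein Ajuba, the receptor kinase Axl, the kinase Lats2, the coactivators Yap1 and Wwtr1 (which encodes TAZ), and the DNA-binding partner Tead1. They are 10 of the 32793 genes in the deposited tables. They were chosen by name as known parts or outputs of the pathway, with earlier results of these data known. Counts among them that are set beside shares of all genes are therefore description and not a test. Colon spheroids are cultures of colon epithelial cells grown as hollow balls. RNA was sequenced in bulk from 2 cultures expressing dimerization-deficient alleles of both Notch1 and Notch2 (Notch1DD and Notch2DD, together NDD) and from 3 wild-type (WT) cultures, all on a mixed background of mostly C57Bl6 with some FVB. The NDD alleles are known to impair pairing of Notch intracellular domains on DNA, and the study's title places the comparison in the maintenance of the intestine. The labels do not say whether the libraries of a group came from separate mice, so p-values measure the spread between these libraries only, which may be technical.

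The Hippo pathway is a kinase cascade that restrains growth in response to cell contact, shape and tension. The kinases LATS1 and LATS2 phosphorylate YAP and TAZ, which keeps them out of the nucleus. When the cascade is off, YAP and TAZ enter the nucleus, bind TEAD proteins and raise transcription of genes such as Cyr61 and Ctgf. Several targets, Lats2 and Amotl2 among them, restrain YAP in turn. In the intestine YAP activity is known chiefly for its part in regeneration after injury. YAP activity is set mostly by phosphorylation and location of the protein, neither of which RNA measures.

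Because TEAD proteins bind the letters GGAATG, the 250 bases before the RefSeq transcription start (GRCm38.p6) were searched for GGAATG and its reverse complement CATTCC. RefSeq promoter entries were found for 8 of the 10 genes; Ctgf and Tead1 were the other two. The letters occurred before the start of 7 of the 8, Lats2 being the exception. Lats2 and Wwtr1 each had 2 windows, and 8 of the 10 windows of these genes held the letters. The 2 windows of Wwtr1 overlap, and their matches (at -136 and -170) are the same bases of the genome, counted in each window. Of all 32851 promoter windows of that length, 12.6% held them. Some windows lie in exons of the same gene in the GENCODE M21 annotation. Such exons cover all 250 bases of the Ankrd1 window, 136 of the Amotl2 window and 34 of the second Wwtr1 window. The windows of 3 genes are shown, with the matched letters in capitals: Cyr61 and Ajuba because they had the lowest p-values between the groups among genes with a window, and Axl because the same letters stand before a gene with almost no RNA here. They cover chr3:145649986-145650235 (Cyr61), chr14:54577662-54577911 (Ajuba) and chr7:25788734-25788983 (Axl), all on the minus strand and written 5′ to 3′. The Axl window lies partly inside the annotated span of the gene (chr7:25756500-25788924).
Cyr61: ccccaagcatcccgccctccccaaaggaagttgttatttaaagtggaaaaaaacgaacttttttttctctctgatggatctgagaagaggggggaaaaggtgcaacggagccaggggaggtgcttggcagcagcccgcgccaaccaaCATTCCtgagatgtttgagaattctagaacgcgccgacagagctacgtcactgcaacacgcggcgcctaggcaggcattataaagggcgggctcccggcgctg
Ajuba: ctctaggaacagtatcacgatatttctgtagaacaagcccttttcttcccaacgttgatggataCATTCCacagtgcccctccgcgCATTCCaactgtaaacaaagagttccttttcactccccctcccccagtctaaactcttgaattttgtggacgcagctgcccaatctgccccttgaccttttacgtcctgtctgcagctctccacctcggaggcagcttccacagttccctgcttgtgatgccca
Axl: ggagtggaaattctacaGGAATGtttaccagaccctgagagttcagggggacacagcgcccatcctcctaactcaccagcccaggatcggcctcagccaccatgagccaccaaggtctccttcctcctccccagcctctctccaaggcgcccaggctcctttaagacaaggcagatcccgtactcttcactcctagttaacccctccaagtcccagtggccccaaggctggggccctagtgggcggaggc

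The match of Cyr61 began at -103 relative to the start, those of Ajuba at -186 and -164, and that of Axl at -233. Ankrd1 also held 2 matches, at -210 and -123, and Amotl2, Yap1 and Wwtr1 held at least 1 each. For comparison, the letters TGGGAA or TTCCCA, the core of the site of the Notch partner RBPJ, occurred before 2 of the 8 genes (Ankrd1 and Ajuba). They stood in 2 of the 10 windows of the 8 genes and in 21.6% of all windows. None of these matches overlapped a TEAD match. The AP-1 letters TGANTCA occurred before 0 of the 8 (0 of the 10 windows) and in 6.75% of all windows. A match describes the letters and is not evidence of binding.

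Levels differed widely among the genes. On the TPM scale, which corrects for transcript length, Ctgf was the most abundant in 5 of 5 libraries, from 50.47 to 206.15 TPM with a median of 99.46. Ajuba (median 60.71) and Yap1 (median 50.3) followed, and their ranges across libraries overlapped. Cyr61, Amotl2 and Tead1 came next, with medians of 22.64, 18.25 and 18.74 and ranges that overlapped each other but stayed below the lowest value of Yap1 (35.28). Wwtr1 (3.17 to 8.65) and Lats2 (3.3 to 6.16) were lower again and overlapped each other. Ankrd1, with at most 0.9 TPM, and Axl, with at most 0.11 TPM, were close to absent.

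Ankrd1 and Axl had too few counts to be tested. Ankrd1, an ankyrin-repeat protein and one of the most used YAP readouts in other tissues, had 3 and 7 counts in NDD and 4, 4 and 20 in WT. Axl, a receptor tyrosine kinase that binds the ligand GAS6, had 2 and 4 counts in NDD and 2, 2 and 4 in WT. The groups overlapped for both, and a difference was not detectable at totals of 19192389 to 23064000 counts per library.

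The other 8 genes passed the filter on low counts and were tested with edgeR's quasi-likelihood test together with all 13501 genes that passed. None of the 8 had an adjusted p under 0.05, where 0.0889% of all genes tested did (12 genes). All 8 had a log2 fold change (NDD over WT) below 0, against 50.5% of all genes tested. An unadjusted p under 0.05 with a lower NDD level was found for 4 of the 8 (Cyr61, Ajuba, Ctgf and Amotl2), against 4.68% of all genes. With limma on log2(TPM + 1) and log2(TPM + 0.1) the count was 2 and 1 of the 8. Of the 12352 genes fitted there, 1258 and 1187 had an unadjusted p under 0.05 in either direction. The median log2 fold change of the 8 was -0.51 (-0.32 without WT replicate 3), beside -0.0047 for all genes tested. DESeq2 called 1 of the 8, Cyr61, as lower, where 1.01% of the genes to which it gave an adjusted p were so called. Counts were also simulated for this design, with the spread between libraries taken from edgeR's own estimates. There a larger share of the calls was false with DESeq2 than with edgeR, and well above the threshold. Adjusted p-values from DESeq2 are to be read with that limit throughout.

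Cyr61 (current symbol Ccn1, chr3:145646971-145649985) encodes a matricellular protein that binds integrins, and is a direct target of YAP. It was at 16.5 and 9.65 CPM in NDD replicates 1 and 2 and at 29.5, 26.2 and 35.2 CPM in WT replicates 1, 2 and 3 (CPM, counts scaled to library size with TMM factors; libraries are given in this order throughout). Every WT library was above both NDD libraries. The NDD mean was 13.1 CPM (SD 4.86, n = 2), the WT mean was 30.3 CPM (SD 4.54, n = 3), and the fitted WT level was 2.31-fold that of NDD. The log2 fold change was -1.21 (SE 0.27, unadjusted p 0.00419), and the edgeR adjusted p of 0.284 missed the threshold. DESeq2 gave an adjusted p of 0.00548. Over all alternatives tried the log2 fold change ranged from -1.66 to -0.86, and the adjusted p from 0.00548 to 0.698. Without NDD replicate 1 the edgeR adjusted p was 0.0189, in a fit that assumes the lone NDD library to vary as the WT libraries do and that called 5.66% of all genes as lower in NDD.

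Ctgf (current symbol Ccn2, chr10:24595442-24598683) encodes the related matricellular protein known for its part in fibrosis. It was at 114 and 72.7 CPM in NDD and at 135, 144 and 276 CPM in WT. The groups did not overlap, but in CPM WT replicate 3 was farther above the other WT libraries than these were above either NDD library. On the log2 scale this did not hold for WT replicate 2 against NDD replicate 2. The log2 fold change was -0.99 (SE 0.38, unadjusted p 0.0375, adjusted p 0.437 by edgeR). It was -0.59 without WT replicate 3 and -1.36 without NDD replicate 1. The annotated transcript Gm15270 runs on the opposite strand across 665 exon bases of Ctgf. The strand setting of the counting is not given in the sources used here, so reads of both may be included.

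Ajuba (chr14:54567469-54577661), a LIM-domain protein that binds LATS kinases at cell junctions, showed the same order of libraries. It was at 90.4 and 68.2 CPM in NDD and at 115, 119 and 207 CPM in WT, with no overlap and WT replicate 3 again the highest. In the fit the log2 fold change was -0.89 (SE 0.30, unadjusted p 0.0251, adjusted p 0.437 by edgeR), and it was -0.56 without WT replicate 3. Amotl2 (chr9:102717091-102733418), a motin scaffold that holds YAP at junctions, was at 39.6 and 38.02 CPM in NDD and at 45.1, 53.4 and 74.3 CPM in WT. The NDD libraries were close to each other and both below WT. Its log2 fold change was -0.57 (SE 0.23, unadjusted p 0.0459, adjusted p 0.440 by edgeR), and it was -0.35 without WT replicate 3.

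Lats2 (chr14:57689662-57746212), both a Hippo kinase and a YAP target, did not share this order. It was at 14.3 and 9.37 CPM in NDD and at 12.99, 9.54 and 17.4 CPM in WT. The groups overlapped, at a log2 fold change of -0.17 (SE 0.32; edgeR gave an adjusted p of 0.810) that was 0.12 without NDD replicate 2 and 0.07 without WT replicate 3. In the GENCODE M21 annotation 41.7% of its 31-base sequences also occur in another gene, chiefly Gm49361, an overlapping protein-coding gene on the same strand. Gm49361 was not analysed here, the annotation behind the deposited counts is not given in the sources used here, and whether the counts of Lats2 include its reads was not tested. Lats1, its paralog, had 3.48 to 6.23 times the TPM of Lats2 in the 5 libraries.

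**Figure D1:**
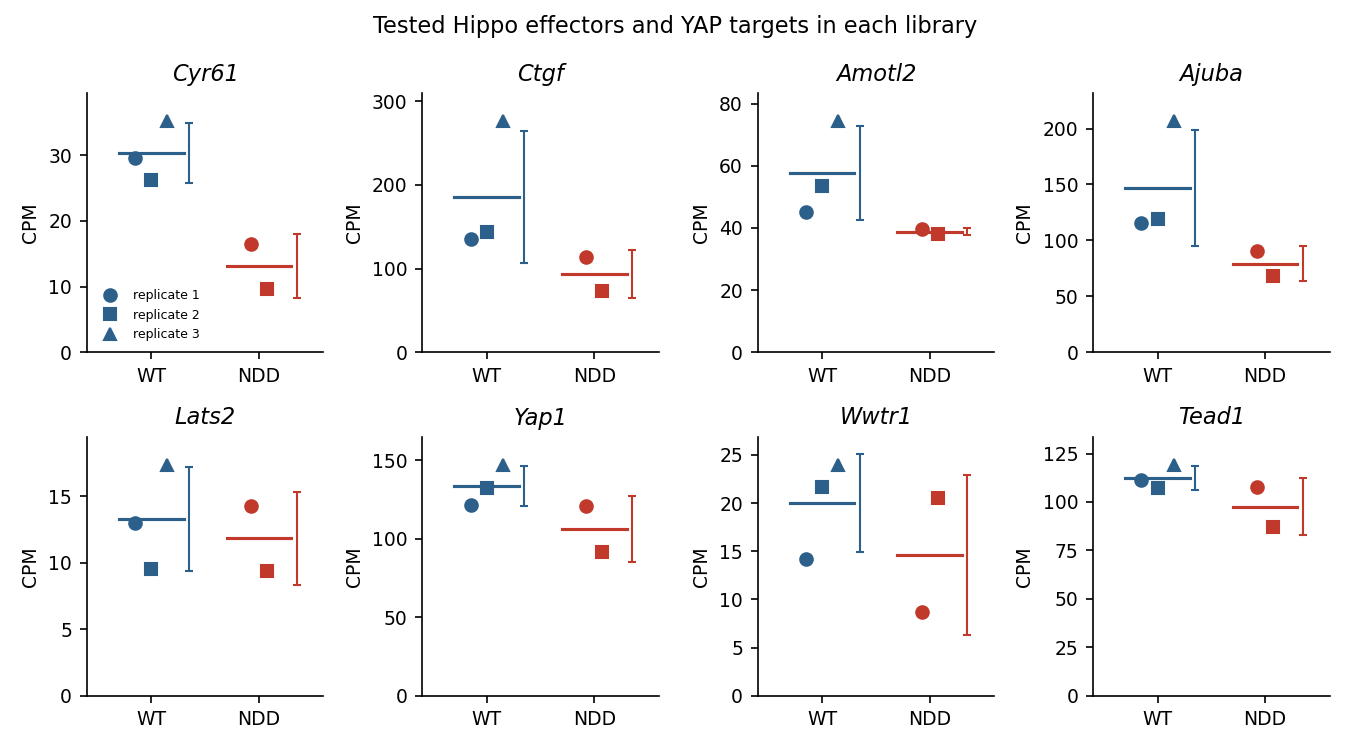
Abundance in CPM (linear axis from 0) of the 8 tested genes in each WT (blue) and NDD (red) library; horizontal lines are group means and bars the SD (n = 3 WT, n = 2 NDD). Cyr61, Ctgf, Amotl2 and Ajuba have both NDD libraries below all WT libraries, while Lats2, Wwtr1 and Tead1 overlap.

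The coactivators and their DNA-binding partner follow. Yap1 (chr9:7931999-8004638) was at 120.8 and 91.3 CPM in NDD and at 121.3, 132 and 147 CPM in WT. NDD replicate 1 was only just below the lowest WT library, and on the TPM scale it was above it (50.3 against 49.58 TPM). Yap1 had a log2 fold change of -0.33 (SE 0.17; edgeR gave an adjusted p of 0.477), with a range of -0.56 to -0.13 when each of the 5 libraries was dropped in turn, the end nearest 0 being without NDD replicate 2. Yap1 shares 116 exon bases with the opposite-strand transcript Gm20416.

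Wwtr1 (chr3:57455644-57575910) was the only one of the 8 whose lowest library was NDD replicate 1. It was at 8.70 and 20.5 CPM in NDD and at 14.2, 21.7 and 23.98 CPM in WT, so NDD replicate 2 lay inside the WT range. The log2 fold change of -0.45 (SE 0.41, adjusted p 0.613 by edgeR) moved to 0.03 when NDD replicate 1 was left out and to -1.19 when the second NDD library was. The ratio of Yap1 to Wwtr1 in TPM was accordingly 15.9 and 5.12 in NDD, against 9.82, 7.02 and 7.06 in WT. Yap1 thus exceeded Wwtr1 at least 5.12-fold in every library, and the NDD ratios lay on either side of the WT ratios.

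Tead1 (chr7:112679356-112906784) was at 107.8 and 87.1 CPM in NDD and at 111, 107.02 and 119 CPM in WT. The groups overlapped, at a log2 fold change of -0.21 (SE 0.14; edgeR gave an adjusted p of 0.524). Leaving out NDD replicate 1 gave -0.38, and leaving out the second NDD library gave -0.048. The 4 TEAD genes encode paralogous factors that bind the same letters, and the others did not all follow Tead1. Tead4 was at 18.8 and 14.5 CPM in NDD and at 28.6, 33.5 and 43.6 CPM in WT. Its groups were well apart, with a log2 fold change of -1.08 (SE 0.23, unadjusted p 0.00337, adjusted p 0.265 by edgeR and 0.00564 by DESeq2). Tead2 was at 14.3 and 11.3 CPM in NDD and at 18.9, 21.4 and 40.6 CPM in WT. Its log2 fold change of -1.08 (SE 0.37, adjusted p 0.437 by edgeR) was -0.66 without WT replicate 3, the library that held the highest Tead2 level. Tead3 overlapped between the groups, at a log2 fold change of 0.08 (SE 0.18; edgeR gave an adjusted p of 0.852).

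Summed over the 4 genes, TEAD RNA was 60.84 and 54.54 TPM in NDD and 72, 76.39 and 99.11 TPM in WT. Every WT library was above both NDD libraries in this sum. Tead4 supplied 17.9% and 14.4% of it in NDD and 22.5%, 24.3% and 25.5% in WT. Tead3 supplied 31.5% and 43.6% in NDD and 29.2%, 29.4% and 18.9% in WT, with NDD replicate 1 close to WT replicates 1 and 2. Tead1 supplied 30.8% and 25.7% in NDD and 26.3%, 23.2% and 20.9% in WT, and its groups overlapped. These shares are given without a test.

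**Figure D2:**
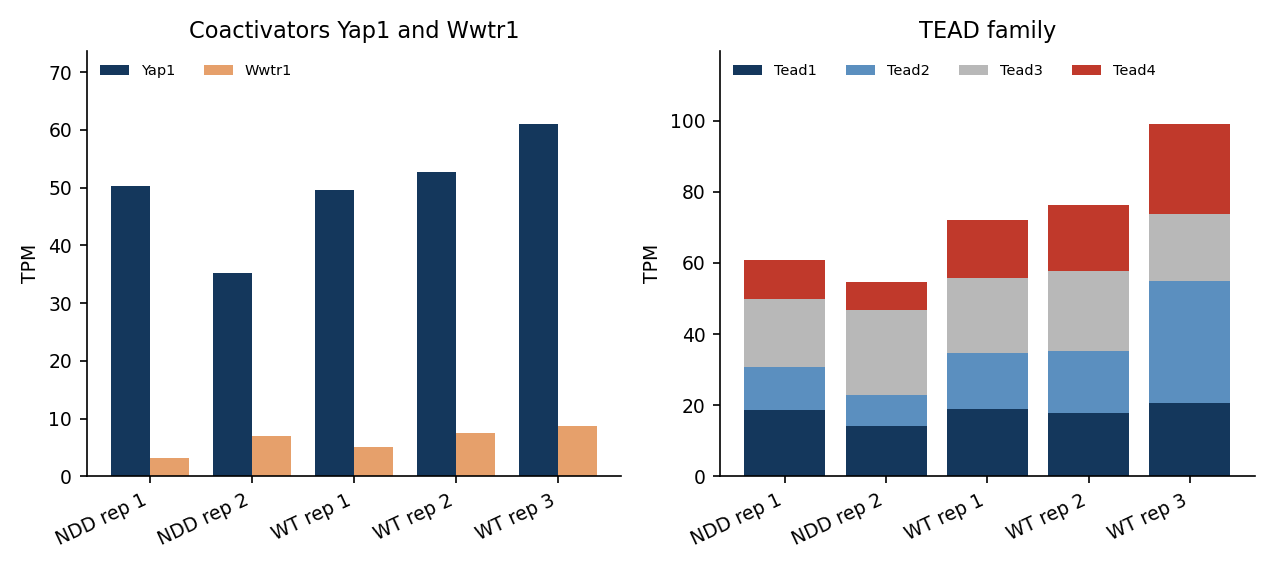
TPM per library (linear axes from 0) of Yap1 and Wwtr1 as bars side by side, left, and of the 4 TEAD genes as stacked bars, right. Summed TEAD levels are 60.84 and 54.54 TPM in NDD and 72 to 99.11 TPM in WT, with a smaller Tead4 part in NDD.

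Much of the spread among the 8 genes followed individual libraries. WT replicate 3 was the highest library in 8 of the 8 genes, against 26.4% of all genes tested, and NDD replicate 2 was the lowest in 7 of the 8, against 34.8%. Both held together for 7 of the 8, against 18.7% of all genes. After each gene was centred on its own mean, the median of the 8 was -0.27 and -0.39 in NDD replicates 1 and 2 and 0.02, 0.11 and 0.56 in WT replicates 1, 2 and 3 on the log2 scale. Ctgf and Cyr61 spanned the widest ranges, from -0.89 to 1.03 and from -1.10 to 0.71, and Tead1 the narrowest, from -0.28 to 0.17.

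**Figure D3:**
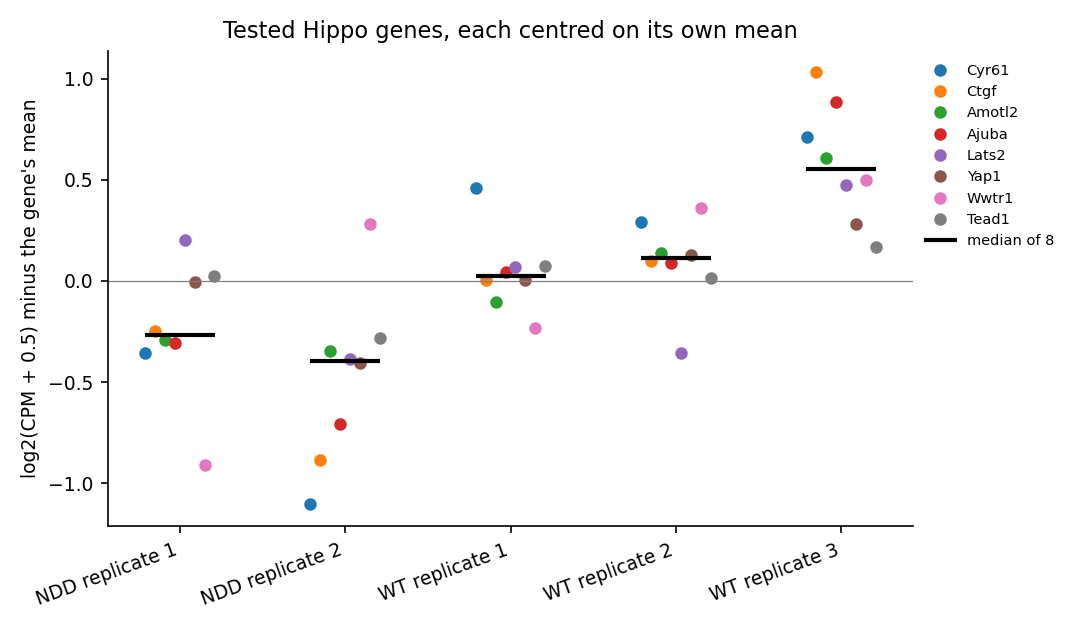
The 8 tested genes in each library on the log2(CPM + 0.5) scale, each centred on its own mean over the 5 libraries; black lines are medians over the 8 genes. Medians are -0.27 and -0.39 in NDD, 0.02 and 0.11 in WT replicates 1 and 2, and 0.56 in WT replicate 3.

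The groups did not overlap in CPM for 5 of the 8 genes (Cyr61, Ctgf, Amotl2, Ajuba and Yap1), all lower in NDD, against 16.2% of all genes tested. Exact permutation of the libraries (two-sided, on log2 values) gave p = 0.2 for each of these 5, the smallest p that 2 libraries against 3 allow, and p from 0.4 to 0.8 for the other 3. Without WT replicate 3, 7 of the 8 log2 fold changes were below 0 (50.6% of all genes) and 2 (Cyr61 and Ajuba) had an unadjusted p under 0.05 with a lower NDD level, against 2.06% of all genes. Without NDD replicate 2, 7 were again below 0 (50.5% of all genes) and 2 (Cyr61 and Wwtr1) had such a p, against 3.62% of all genes.

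**Figure D4:**
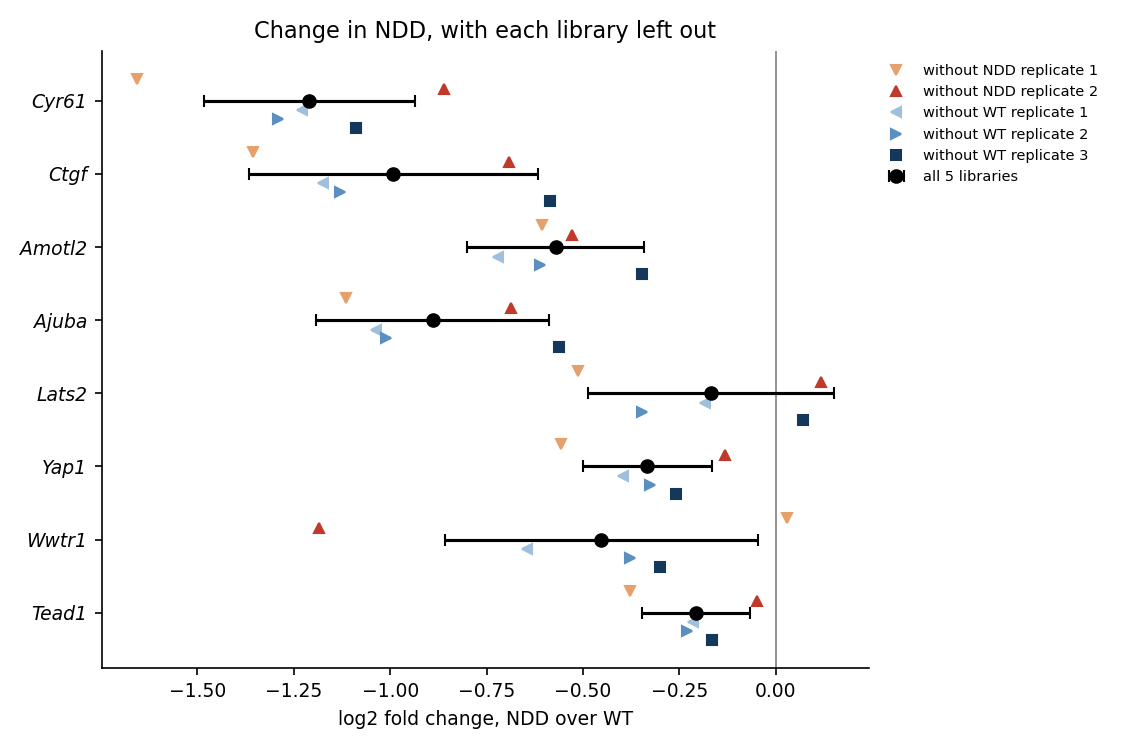
Log2 fold change of each tested gene, NDD over WT, with all 5 libraries (black, bars are the approximate SE) and with each library left out (coloured). Cyr61 stays between -1.66 and -0.86, whereas Lats2 and Wwtr1 reach 0.12 and 0.03.

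A pair of colonocyte differentiation markers had the opposite order across the same libraries. They were picked from a list of 10 colon epithelial markers with their values known. Krt20, a keratin of surface colonocytes, was at 56.6 and 114.2 TPM in NDD and at 32.51, 31.94 and 4.64 TPM in WT. Slc26a3, the chloride and bicarbonate exchanger of the same cells, was at 98.9 and 153.9 TPM in NDD and at 71.3, 35.39 and 12.3 TPM in WT. Both were highest in NDD replicate 2 and lowest in WT replicate 3, the reverse of Ctgf and Ajuba. By edgeR their log2 fold changes were 1.93 and 1.72, with adjusted p-values of 0.440 and 0.437. The other markers of the list did not all share this order. Car1 was at 4847 and 2953 TPM in NDD and at 3172, 3116 and 2311 TPM in WT, so its groups overlapped. Krt18 had a log2 fold change of -0.14 (SE 0.14). In CPM the groups did not overlap, with NDD higher, for 6 of the 10, against 2136 of all 13501 genes tested. Over the whole list of 10 colon epithelial markers, 9 had a log2 fold change above 0 (median 0.19), and the summed level ranged from 9161 to 11797 TPM in NDD and from 8535 to 9698 TPM in WT. Epithelial markers were thus abundant in all 5 libraries, as the label says. The part of differentiation in the values of the Hippo genes was not tested, and in bulk RNA fewer cells of a type and less RNA per cell cannot be told apart.

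Ctgf, Cyr61 and Axl are strongly expressed in stroma, so markers of other cell types were examined. The 10 fibroblast markers summed to 3.95 and 8.9 TPM in NDD and to 1.82 to 4.4 TPM in WT. Pdgfrb was the largest part in every library, at 2.98 and 8.17 TPM in NDD and 1.09 to 2.12 TPM in WT, and 2 of the 10 were at 0 in every library. Col1a1, the defining collagen of fibroblasts, was at most 0.12 TPM. The 6 endothelial markers summed to at most 2.96 TPM and the 10 immune markers to 3.26 to 8.12 TPM. Of these, 2 endothelial and 3 immune markers were at 0 throughout. The immune sum was lower in both NDD libraries (3.26 and 4.21 TPM) than in WT (5.1 to 8.12 TPM). Cd68 was the largest part of it in every library, at 2.8 and 3.42 TPM in NDD and 4.03 to 5.88 TPM in WT, and Ptprc was at most 0.03 TPM. What part the immune sum had in the values above was not tested.

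The rest of the pathway was described from hand-assembled lists. In the core kinase module (the MST kinases Stk3 and Stk4, the adaptor Sav1, Lats1, the MOB cofactors, and the upstream kinases Map4k4 and Taok1 to Taok3), 10 of 10 genes were tested, 3 with a log2 fold change below 0 and 7 above. None had an unadjusted p under 0.05, against 11.2% of all genes in either direction, and the median was 0.06. Mob1a (50.94 TPM on average), Taok3 and Sav1 were the most abundant, with log2 fold changes of 0.25 (SE 0.13), 0.06 (SE 0.12) and 0.08 (SE 0.12). Map4k4 was lowest at -0.47 (SE 0.32), with 67.1 and 39.4 CPM in NDD and 57.5, 64.4 and 99.6 CPM in WT. Its value was -0.91 when NDD replicate 1 was omitted, -0.12 when the second NDD library was, and -0.19 without WT replicate 3. No gene of the kinase module was called in either direction.

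Of the 14 upstream regulators and YAP-binding inhibitors, 13 were tested. The log2 fold change was below 0 in 9 and above 0 in 4, with a median of -0.26 (-0.012 without NDD replicate 2), and 2 had an unadjusted p under 0.05, both lower in NDD, where 4.68% of all genes were. Ptpn14, a phosphatase that binds YAP and is itself one of its targets, was at 12.1 and 19.8 CPM in NDD and at 27.5, 30.5 and 60.3 CPM in WT. Its log2 fold change was -1.31 (SE 0.42, adjusted p 0.413 by edgeR), or -0.86 without WT replicate 3. The second was Frmd6, a FERM protein of the upstream pathway, named after its values were seen, at a log2 fold change of -1.01 (SE 0.32; edgeR gave an adjusted p of 0.413). The most abundant of this list were Crb3, Fat1 and Wwc1, with log2 fold changes of 0.23 (SE 0.15), 0.11 (SE 0.24) and -0.26 (SE 0.24). The values of Fat1, a giant cadherin, and Wwc1, the scaffold KIBRA, changed sign without NDD replicate 2.

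A further 16 genes often listed as YAP and TAZ targets divided evenly. Of the 12 tested, 6 had a log2 fold change below 0 and 6 above, with a median of -0.02. The median was -0.23 without NDD replicate 2 and -0.19 without WT replicate 1. An unadjusted p under 0.05 was found for 3, with 2 lower in NDD (4.68% of all genes) and 1 higher (6.49% of all genes). F3, which encodes tissue factor, was at 84.2 and 47.7 CPM in NDD and at 150.2, 169.5 and 135.1 CPM in WT. Its groups were well apart, and WT replicate 3 was the lowest WT library. Its log2 fold change was -1.20 (SE 0.26, adjusted p 0.266 by edgeR and 0.00195 by DESeq2). Arhgef17, a guanine nucleotide exchange factor, was lowest at -1.56 (SE 0.56, adjusted p 0.437 by edgeR). Nt5e, the ectonucleotidase CD73, was highest in NDD, at 30.3 and 101.2 CPM against 9.78, 24.7 and 17.7 CPM in WT. Its log2 fold change of 1.92 (SE 0.56, adjusted p 0.394 by edgeR and 0.0175 by DESeq2) was 0.81 without NDD replicate 2. The abundant Birc5, an inhibitor of apoptosis that also marks dividing cells, and Myof, a membrane repair protein, had log2 fold changes of -0.70 (SE 0.39) and -0.23 (SE 0.17). Birc5 was at -1.60 when NDD replicate 1 was omitted and at -0.15 when the second NDD library was. Myof was at -0.088 without WT replicate 3.

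Genes of intestinal repair that are linked to YAP gave 6 log2 fold changes below 0 and 2 above among 8 tested, with a median of -0.32. The median was -0.18 without WT replicate 3 and -0.20 without NDD replicate 2. Ly6a, Clu and Anxa3, the most abundant of the list, had log2 fold changes of -0.40 (SE 0.22), -0.94 (SE 0.73) and -0.16 (SE 0.18) with overlapping groups. Clu was at -2.27 when NDD replicate 1 was omitted, at -0.25 when the second NDD library was, and at -0.34 without WT replicate 3. Omitting WT replicate 3 brought Ly6a to -0.21. Areg, an EGF receptor ligand, was on the other side at 0.56 (SE 0.23, adjusted p 0.441 by edgeR).

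Cyr61 and Ctgf also respond to serum response factor (SRF) and to acute stimulation. In a list of 12 immediate early and SRF-linked genes, 11 were tested, 5 with a log2 fold change below 0 and 6 above (median 0.18). The median was -0.12 without NDD replicate 2. None of the 11 had an unadjusted p under 0.05, against 11.2% of all genes in either direction. The abundant Junb, Ier2 and Egr1 had log2 fold changes of 0.21 (SE 0.28), 0.18 (SE 0.21) and -0.15 (SE 0.56), and Egr1 varied within NDD from 136.1 to 423.5 CPM. Atf3 was highest at 0.67 (SE 0.37) and Fosb lowest at -0.68 (SE 0.68). Junb and Ier2 were at -0.24 and -0.087 without NDD replicate 2. Egr1 was at 0.44 without NDD replicate 1, and Fosb at 0.11 without WT replicate 1.

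**Figure D5:**
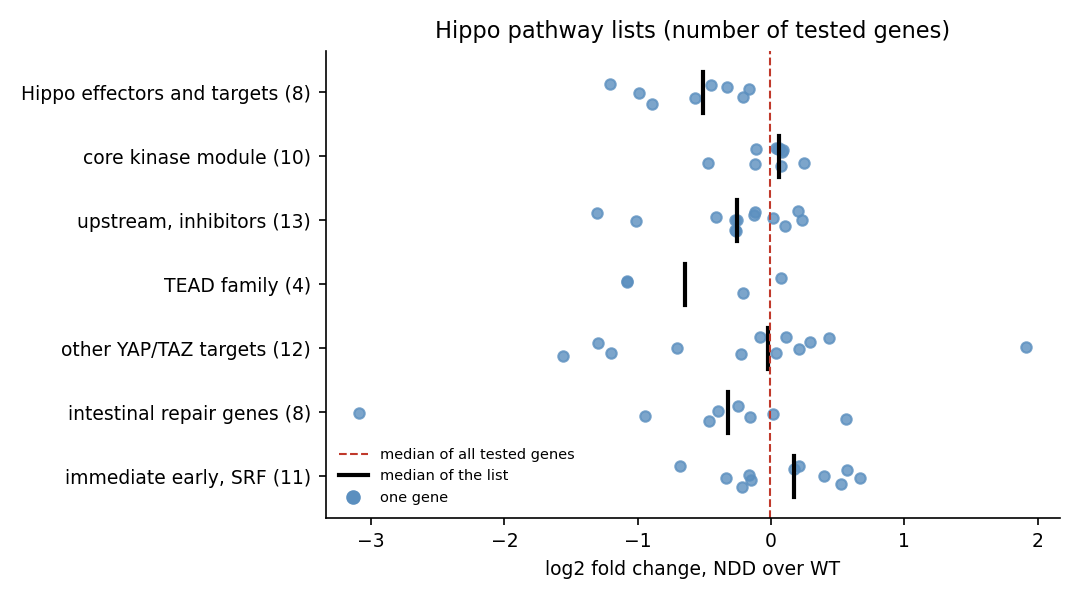
Log2 fold change, NDD over WT, of each tested gene (points) in the set of 10 genes and in 6 hand-assembled lists, with the list median (black line) and the median of all 13501 tested genes (dashed line). The medians are -0.51 for the Hippo effectors and targets, -0.64 for the TEAD family and 0.06 for the core kinase module. Tead1 belongs to both of the first 2 lists named here.

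Genes with the most similar profiles over the 5 libraries were found by the root mean square difference of centred log2 values among 10728 other well-expressed genes. Nearest to Cyr61 were Cmtm7, Map6 and Mfsd2a, at differences of 0.11, 0.12 and 0.13. Nearest to Ctgf were Col4a2, Ttc9 and Itgb6, at 0.07, 0.09 and 0.09. Ajuba was the 8th nearest to Ctgf (0.11) and only the 158th nearest to Cyr61 (0.28), so the profiles of Ctgf and Ajuba were more alike than either was to that of Cyr61. Nearest to Yap1 were Llgl1, Bud23 and Rps19bp1, at 0.016 to 0.020, and its nearest gene among the 8 was Tead1, in place 669 (0.096).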

How the data were processed

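RNA was measured in 5 libraries of colon spheroids, 2 NDD and 3 WT, grouped by the genotype label, with replicate numbers from the titles. The authors deposited estimated counts per gene as whole numbers, without normalization, and a table of TPM (scaled for transcript length, a fixed sum per library). The submitters' processing notes name Bowtie2, RSEM and mm10. Their versions, the gene annotation and the strand setting are not given in the sources used here. Columns matching no sample numbered 0.

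Total counts were 19192389 to 23064000. The counts were tested with edgeR 4.0.16 (R 4.3.3; TMM, filterByExpr, robust quasi-likelihood, no covariate, prior count 0.125) over 13501 genes, with Benjamini-Hochberg adjustment over all of them and a threshold of 0.05. Standard errors were approximated from each fold change and its F statistic. Coordinates and sequences are from RefSeq GRCm38.p6, the assembly behind mm10, with GENCODE M21 for overlaps. Cyr61 and Ctgf were matched through RefSeq synonyms. The permutation test was exact and two-sided.

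Besides the 10 genes, every list gene with an adjusted p under 0.05, the 3 most abundant per list, the largest rise and fall and the 3 nearest profiles (mean log2 CPM of at least 2) were named, except for an item that is not reported here. The genes and lists were chosen with earlier results of these data known. Alternatives were other scaling factors, filters and prior count, DESeq2 1.42.0, limma 3.58.1 on TPM, a replicate block and leaving out each library. For limma, log2(TPM + 1) and log2(TPM + 0.1) were used with a minimum of 1 TPM in 2 libraries. Only log2(TPM + 1) was also used without that minimum. Both count tests were tested on simulated counts of this design with genes changed by a log2 fold change of 2, up or down. That is larger than any change fitted for the 8 genes, so recovery of changes of their size was not tested. The simulated spread between libraries came from edgeR's own estimates, which limits the comparison with DESeq2. Both tests recovered most of the changed genes, and the share of false calls was well above the threshold with DESeq2 and close to it with edgeR.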

Additional observations from a re-analysis of the deposited data

How the results depend on the processing

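Of the 8 genes, 0 were called with the settings of the report and 1 (Cyr61) with DESeq2. With single libraries left out the number ranged from 0 to 1, the 1 again being Cyr61, without NDD replicate 1. Calls over all genes, 12 in the report, were 58 with no filter, 4 with 10 counts required in every library, 365 with DESeq2, 28 and 32 with limma on log2(TPM + 1) and log2(TPM + 0.1), and 33 with the replicate block. They ranged from 0 (without WT replicate 1, where 1211 genes had an unadjusted p under 0.05) to 1207 (without NDD replicate 1) with single libraries left out, and the cause was not tested. The count of the 8 with an unadjusted p under 0.05 and a lower NDD level was 4 in the report (4.68% of all genes). It was 3 with the replicate block, where 942 of 13501 genes had an unadjusted p under 0.05 in either direction. With limma it was 2 on log2(TPM + 1), 1 on log2(TPM + 0.1) and 1 on log2(TPM + 1) with no filter. Genes with an unadjusted p under 0.05 in either direction were there 1258 and 1187 of 12352, and 1798 of 19227 with no filter. The median log2 fold change of the 8 genes stayed between -0.68 (without WT replicate 1) and -0.32 (without WT replicate 3) under the alternatives tried. Some list medians also moved: the TEAD family was at -0.41 without WT replicate 3, the core kinases at -0.0096 without NDD replicate 1, and the further targets and the immediate early genes at -0.23 and -0.12 without NDD replicate 2.

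With the replicate block Lats2 was at 0.057, Tead3 at -0.020 and the median of the immediate early genes at -0.13. Whether the replicate numbers pair the libraries is not known. Deviations of same-numbered libraries correlated at -0.0095 and 0.35, and these 2 values cannot decide it. Nt5e was called with the block (adjusted p 0.0319 by edgeR). Leaving out 1 library gave ranges that crossed 0 for Lats2 (-0.51 to 0.12), Wwtr1 (-1.19 to 0.030), Taok3 (-0.057 to 0.18), Fat1 (-0.045 to 0.35), Wwc1 (-0.66 to 0.063), Tead3 (-0.13 to 0.26), Junb (-0.24 to 0.56), Ier2 (-0.087 to 0.40), Egr1 (-1.18 to 0.44) and Fosb (-1.06 to 0.11); values per library included -0.0080 for Tead3 without WT replicate 3, 0.07 for Lats2 without WT replicate 3 and 0.16 for Egr1 without WT replicate 1. Without NDD replicate 1, Tead4, F3 and Birc5 were also called (adjusted p 0.0428, 0.0154 and 0.0154). With single libraries left out, Crb3 ranged from 0.077 (without NDD replicate 2) to 0.38 (without NDD replicate 1), Anxa3 from -0.31 (without WT replicate 1) to -0.065 (without WT replicate 3) and Atf3 from 0.42 (without WT replicate 1) to 1.10 (without WT replicate 2). Depth limits Ankrd1 and Axl, with at most 20 and 4 counts.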
